A study of Mus musculus with 6 samples.

Results

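The genes described here code for the NF-κB transcription factor subunits (Nfkb1, Nfkb2, Rela, Relb and Rel), for their inhibitors of the IκB family (Nfkbia, Nfkbib, Nfkbie and Nfkbiz), and for the feedback enzyme A20 (Tnfaip3). All 10 were found by symbol among the 21878 genes of the deposited count table, and all 10 had enough counts to be tested. They were measured by RNA sequencing of mouse Achilles tendon tissue in 2 groups of 3 libraries, labelled as sham or as Achilles tendon amputation, and called sham 1 to 3 and cut 1 to 3 here. The series title places the comparison in a study of bone formation outside the skeleton after injury. The sources used here do not give strain, genotype, age, sex or the time after surgery, nor whether each library came from a separate animal. The p-values therefore measure only the spread between these libraries, which may be technical.

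NF-κB proteins act as pairs that bind DNA at short κB sites. In resting cells IκB proteins hold these pairs in the cytoplasm, and signals from TNF, interleukin-1 or Toll-like receptors activate the IκB kinase (IKK) complex, which marks IκB for destruction and lets the pairs enter the nucleus. Rela and the product of Nfkb1 form the usual pair of this canonical pathway, while Relb and the product of Nfkb2 form that of the slower noncanonical pathway, driven by receptors such as LTBR and CD40. Several genes of the family are themselves NF-κB targets, so the pathway feeds back on its own subunits and inhibitors. Its activity is set mainly by protein breakdown and location, which RNA levels do not report.

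Because this feedback works through κB sites, κB matches near the start sites of 4 of these genes are shown. The 4 include genes that rose and genes that did not pass the test. The matches of Rel and of the second start site of Nfkb2 are not shown. Sequences were taken from RefSeq (GRCm38.p6), which matched 7 of the 10 genes with 10 start sites. Start sites are numbered only among these 10. Those of Nfkb2 lie inside the span of the gene, which begins at 46300994, so they need not include its outermost start. The Nfkb2 matches shown begin in sequence annotated as an untranslated region of a transcript, so they lie in transcribed sequence. Nfkb1, Relb and Nfkbiz were not matched. Each line reads 5′ to 3′ on the strand of the gene. Capitals mark matches of the κB consensus on either strand, with overlapping matches run together. The consensus was GGGRNNYYCC, where R is A or G, Y is C or T and N is any base.
Nfkb2, upstream of the first start site, chr19:46304693-46304712, plus strand: gtcacGGGAATTCCCCccct
Nfkb2, the 16 bases before the same start site, chr19:46304721-46304736, plus strand: cgaaaGGGGCTTTCCc
Nfkb2, upstream of the third start site, chr19:46305700-46305719, plus strand: ttttcGGGACTTTCCtaagc
Nfkbie, 250 bases before the start site, chr17:45555450-45555699, plus strand: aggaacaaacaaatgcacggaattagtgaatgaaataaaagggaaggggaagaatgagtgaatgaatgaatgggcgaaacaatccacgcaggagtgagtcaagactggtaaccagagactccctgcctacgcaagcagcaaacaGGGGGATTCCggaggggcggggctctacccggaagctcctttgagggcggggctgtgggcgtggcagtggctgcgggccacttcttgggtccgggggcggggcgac
Nfkbia, 250 bases before the start site, chr12:55492648-55492897, minus strand: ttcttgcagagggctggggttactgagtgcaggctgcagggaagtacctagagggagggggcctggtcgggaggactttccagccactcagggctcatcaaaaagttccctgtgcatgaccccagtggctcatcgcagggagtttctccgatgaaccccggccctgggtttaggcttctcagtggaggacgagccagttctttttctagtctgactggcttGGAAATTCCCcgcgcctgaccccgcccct
Tnfaip3, 137 bases before the first start site, chr10:19015411-19015547, minus strand: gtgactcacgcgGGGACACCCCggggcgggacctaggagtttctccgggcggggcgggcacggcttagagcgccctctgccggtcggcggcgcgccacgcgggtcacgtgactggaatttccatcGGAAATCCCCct

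The κB consensus matched at least once in the 250 bases before 7 of the 10 start sites. These sites belong to 5 of the 7 genes (all 3 listed starts of Nfkb2, and Rel, Nfkbia, Nfkbie and the first listed start of Tnfaip3). Among all 32851 start sites in the RefSeq table, 7.25% of such windows held a match. The windows of Rela and Nfkbib held no match. A match of letters is not a measured binding site, and the starts of Nfkb2 lie close together, so they are not independent.

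Library totals ran from 23916839 to 31346730 counts. A list of 30 skeletal muscle genes held 19.9% to 22.2% of all counts in the sham libraries. In cut tendon the share was 1.70% (library 1), 0.540% (library 2) and 16.4% (library 3), so the last lay near the sham libraries in this respect. Of 8 tendon markers 5 were higher in cut tendon, and Tnmd, which marks tendon cells, was present in every library at 44.5 to 1014 CPM (counts scaled to library size, with TMM factors between libraries). In the macrophage list 11 of 12 genes were higher, with a summed level of 379 to 503 CPM in sham and 1125 to 1304 CPM in cut tendon. The cartilage list rose from a summed 423 to 1482 CPM in sham to 4675 to 17179 CPM in cut tendon. The adipocyte list was lower, at 1558 to 2505 CPM in sham and 258 to 654 CPM in cut tendon. The endothelial list was lower too, at 933 to 1107 CPM and 478 to 758 CPM. The neutrophil list was low, at a summed 4.47 to 7.98 CPM in sham and 8.13 to 14.7 CPM in cut tendon. Its defining gene Ly6g had no counts in 4 of the 6 libraries. In bulk tissue, fewer cells of a type and less RNA per cell cannot be told apart.

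Cut tendon had more Nfkb2, Nfkb1 and Nfkbie RNA and less Nfkbib RNA than sham tendon, while the other 6 genes, Nfkbia and Tnfaip3 among them, did not pass the test. Expressed as a count, 3 of the 10 were higher and 1 was lower with a threshold of 0.05 on the adjusted p from a quasi-likelihood fit in edgeR (Benjamini-Hochberg over 14561 tested genes). The same test called 20.4% of all tested genes higher and 12.3% lower, so the share of the family that was called lies close to the background. All 3 cut libraries lay above all 3 sham libraries for 4 of the 10 genes and below them for 2, against 28.7% and 26.1% of all tested genes. The changes were small: the median log2 fold change of the 10 genes was 0.31, beside -0.02 for all tested genes, and no member changed by more than 1.95-fold.

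**Figure D1:**
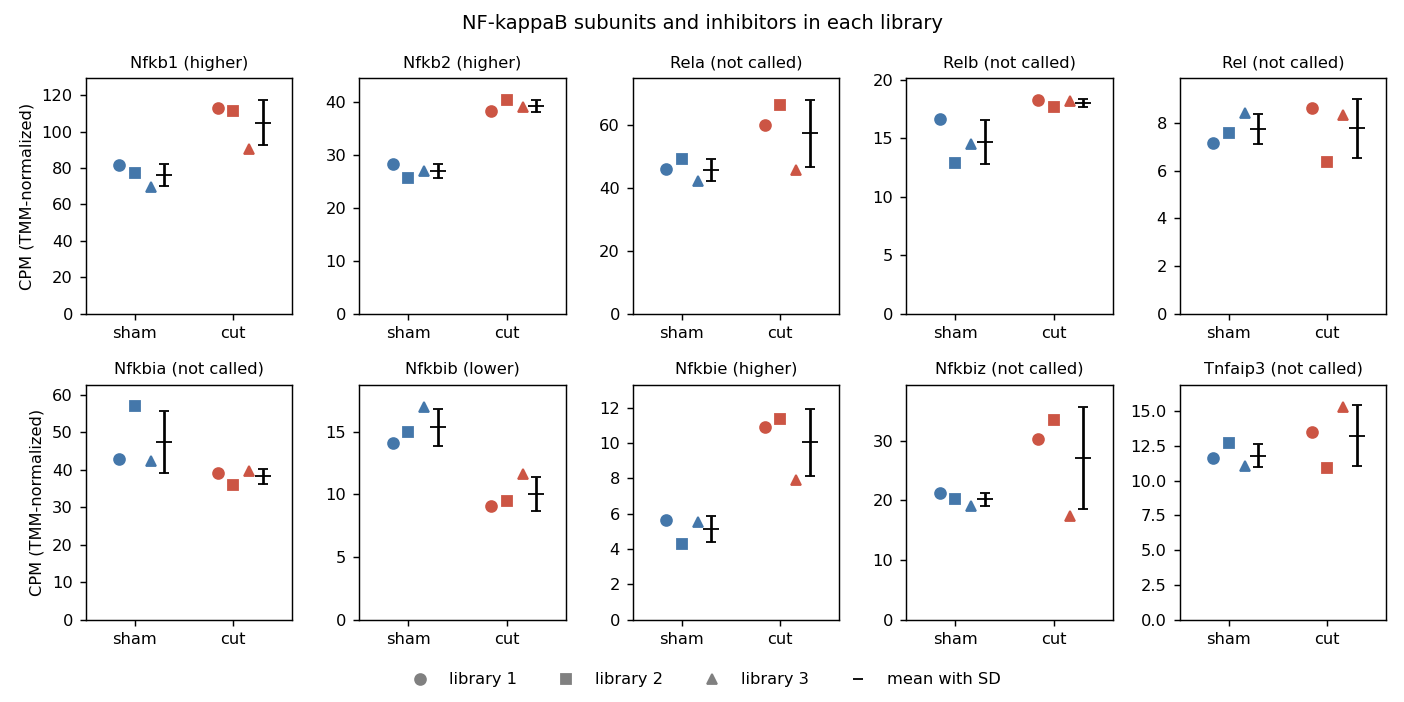
TMM-normalized CPM of the 10 genes in each sham (blue) and cut-tendon (red) library. Symbols stand for library numbers and black bars for the mean with SD (n = 3). Nfkb2, Nfkb1 and Nfkbie are higher in every cut library and Nfkbib is lower in every one, while Rela and Nfkbiz of cut 3 lie among or below the sham values.

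Of the subunits, Nfkb2 (NCBI gene 18034, chromosome 19, 46300994 to 46312400 in GRCm38.p6) had the smallest SE. It codes for the precursor p100, which holds Relb back until it is cut to p52. Its level was 28.3, 25.7 and 26.9 CPM in sham tendon and 38.3, 40.5 and 39.0 CPM in cut tendon (libraries 1 to 3 in this order, here and below). The groups were well apart and the 3 cut libraries differed little, cut 3 included. Nfkb2 rose by log2 0.54 ± 0.10 (SE), a 1.46-fold change (adjusted p = 0.0117, edgeR, n = 3 per group). The call was lost without sham 2 (adjusted p = 0.0746) or sham 3 (0.0568) and held under 15 of 17 alternatives, among them a fit with the muscle level as a covariate (log2 0.52 ± 0.14). Exons of Nfkb2 overlap those of Psd and of a long noncoding RNA on the opposite strand, and the strand setting of the counting is not given. Psd itself had at most 1.19 CPM in any library.

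Nfkb1 (NCBI gene 18033, chromosome 3, 135584655 to 135691969) codes for p105, the precursor of the p50 subunit and itself an inhibitor while uncut. It stood at 81.9, 77.1 and 69.8 CPM in sham and at 113, 111 and 90.5 CPM in cut tendon. All cut values were above all sham values, with cut 3 nearest to sham. Nfkb1 rose by log2 0.46 ± 0.14, a 1.38-fold change, with an adjusted p of 0.0477 in edgeR's test. This call rested at the threshold. It held under 5 of 17 alternatives, and the adjusted p reached 0.294 with the muscle covariate (log2 0.25 ± 0.15), although it was 0.0044 without cut 3.

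Rela (NCBI gene 19697, chromosome 19, 5637442 to 5648134) codes for p65, the main activating subunit of the canonical pathway. It stood at 45.8, 49.1 and 42.1 CPM in sham 1 to 3, and at 60.0, 66.3 and 45.5 CPM in cut 1 to 3. Cut 1 and 2 lay above every sham library, and cut 3 lay inside the sham range. The log2 difference of 0.33 ± 0.17 did not pass the test (adjusted p = 0.165, edgeR). Without cut 3, the library with a muscle share of 16.4%, Rela was called higher (log2 0.47 ± 0.12, adjusted p = 0.00958), and with the muscle covariate its difference was -0.04 ± 0.14.

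Relb (NCBI gene 19698, chromosome 7, 19606217 to 19629438), the noncanonical partner of p52, stood at 16.7, 12.9 and 14.5 CPM in sham and at 18.3, 17.6 and 18.2 CPM in cut tendon. The cut libraries were tightly grouped just above the highest sham library, and the difference of log2 0.29 ± 0.13 was not called (adjusted p = 0.127, edgeR) or in any of the 17 alternatives. Rel (NCBI gene 19696, chromosome 11, 23736847 to 23770969) codes for c-Rel, best known from lymphocytes and myeloid cells. It was at 7.19, 7.61 and 8.43 CPM in sham and 8.64, 6.38 and 8.35 CPM in cut tendon. These values overlapped fully, and the difference was log2 0.01 ± 0.17 (adjusted p = 0.975, edgeR), with a sign that turned under 8 of 17 alternatives. The macrophage list was higher in every cut library by the summed levels above.

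The 3 cytoplasmic inhibitors moved in different directions. Nfkbie (NCBI gene 18037, chromosome 17, 45555700 to 45563169) codes for IκBε, a slower inhibitor that restrains Rela and c-Rel pairs. It stood at 5.64, 4.31 and 5.53 CPM in sham, and at 10.9, 11.4 and 7.88 CPM in cut 1 to 3. Every cut library was above every sham library, and cut 3 was the lowest of them. Nfkbie rose by log2 0.96 ± 0.21, a 1.95-fold change and the largest among the 10 genes (adjusted p = 0.0176, edgeR). It held its call without cut 3 (log2 1.11 ± 0.18) but lost it when any of the other 5 libraries was left out (adjusted p of 0.0516 to 0.0756) and with the muscle covariate (log2 0.61 ± 0.23, adjusted p = 0.114).

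Nfkbib (NCBI gene 18036, chromosome 7, 28758251 to 28766644) codes for IκBβ, an inhibitor that is resynthesized slowly after its breakdown. It was at 14.1, 14.9 and 16.9 CPM in sham, and at 9.09, 9.45 and 11.6 CPM in cut tendon. All cut values lay below all sham values, with cut 3 again the nearest to sham. Nfkbib fell by 0.61 ± 0.15 on the log2 scale, to 0.655 of the sham level (adjusted p = 0.0280, edgeR). The call was lost without any of the libraries other than cut 3 (adjusted p of 0.0624 to 0.0921) and with the muscle covariate (log2 -0.40 ± 0.19). Exons of Nfkbib overlap Sirt2 and Ccer2 on the opposite strand. Sirt2, at 54.8 to 79.7 CPM, was more abundant than Nfkbib and also lay lower in every cut library (log2 -0.32 ± 0.13, not called), so that reads of the pair may not be told apart.

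Nfkbia (NCBI gene 18035, chromosome 12, 55489409 to 55492647), the gene of IκBα, is the classical rapid target by which NF-κB shuts itself off. It stood at 42.9, 57.0 and 42.4 CPM in sham and at 39.1, 36.0 and 39.5 CPM in cut tendon. Its cut values were all below the sham values, but only narrowly below sham 1 and 3, while sham 2 stood apart from both. The difference was log2 -0.31 ± 0.15 and was not called (adjusted p = 0.145, edgeR), nor was it under any of the 17 alternatives, where it ran from -0.42 to -0.18. Nfkbia was thus not called higher, unlike Nfkb2, Nfkb1 and Nfkbie. Its start site has a κB match close by in the sequence above, and any bearing of that match on its level was not tested.

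The remaining pair act in the nucleus and upstream. Nfkbiz (NCBI gene 80859, chromosome 16, 55811375 to 55838954) codes for IκBζ, a nuclear cofactor that helps p50 switch on secondary inflammatory genes. It stood at 21.3, 20.2 and 19.0 CPM in sham and at 30.3, 33.5 and 17.4 CPM in cut 1 to 3. Cut 1 and 2 were above all sham libraries and cut 3 was below them. The difference of log2 0.43 ± 0.24 was not called (adjusted p = 0.210, edgeR), but was without cut 3 (log2 0.66 ± 0.12, adjusted p = 0.0022), and it turned to -0.24 ± 0.16 with the muscle covariate. Tnfaip3 (NCBI gene 21929, chromosome 10, 19000910 to 19015410) codes for A20, an enzyme that edits ubiquitin chains on signalling proteins and is a textbook target of the pathway. It was at 11.6, 12.7 and 11.1 CPM in sham and at 13.5, 10.9 and 15.3 CPM in cut tendon. Here cut 3 was the highest and cut 2 the lowest of all 6 libraries, and the difference was log2 0.16 ± 0.16 (adjusted p = 0.449, edgeR), not called in any of the 17 alternatives.

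**Figure D2:**
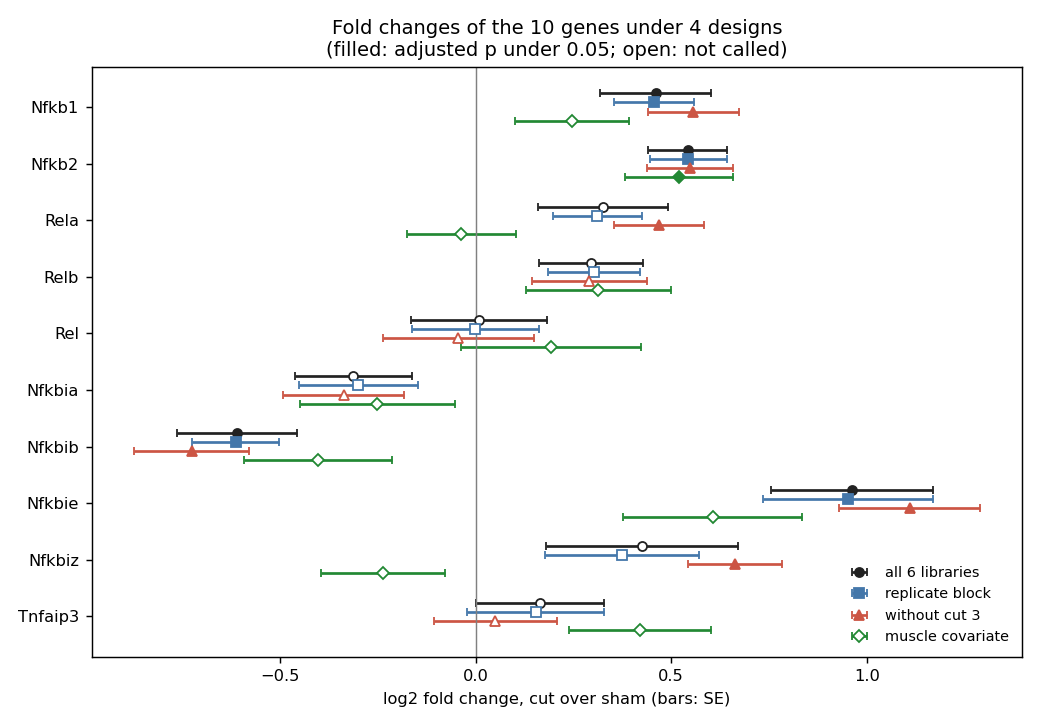
Log2 fold change of cut over sham for each gene, with SE bars, from all 6 libraries, with the replicate number as a block, without cut 3, and with the muscle level as a covariate. Filled symbols passed an adjusted p under 0.05. Nfkb2 stays near 0.54 in each fit, while Rela and Nfkbiz range from below 0 with the covariate to 0.47 and 0.66 without cut 3.

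The members differed in where cut 3, the cut library with the high muscle share, stood. Relative to the sham mean, Nfkb2 stood at log2 0.51, 0.59 and 0.53 in cut 1 to 3 and Relb at 0.31, 0.26 and 0.30. By contrast, Rela stood at 0.39, 0.54 and -0.01, Nfkbiz at 0.59, 0.73 and -0.21, and Nfkb1 at 0.57, 0.54 and 0.25. The genes of the noncanonical pair thus had near-equal values in the 3 cut libraries, and those of the canonical pair did not. Nfkbia, outside both pairs, was also fairly even, at -0.279, -0.399 and -0.263 in cut 1 to 3. Even values were therefore not confined to the noncanonical pair. Rel, Nfkbib, Nfkbie and Tnfaip3 differed more between the cut libraries than Nfkbia did. This is a description and was not tested. The muscle shares beside these values were 1.70%, 0.540% and 16.4%, and their part in the differences between cut libraries was not tested. Without cut 3, 5 of the 10 genes were higher (Nfkb1, Nfkb2, Rela, Nfkbie and Nfkbiz) and 1 was lower, in a fit that called 28.5% of all tested genes higher and 29.7% lower. With the replicate number as a block the same 4 genes were called as in the reported fit, and 21.7% of all tested genes were higher and 17.3% lower. With the muscle covariate, Nfkb2 was the 1 member called, and 11.0% of all tested genes were higher and 5.24% lower. Muscle level and group largely ran together, with cut 3 the exception, so this fit can tell them apart only through cut 3. What a call lost in this fit, here or elsewhere in the text, means was not tested.

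Levels of different genes were compared in FPKM, which divides by gene length. In sham tendon Nfkbia was highest at 30.1 ± 5.59 FPKM (SD, n = 3), followed by Nfkb1 (16.7 ± 1.82) and Rela (15.7 ± 1.57), whose ranges overlapped. A middle tier held Nfkb2 (7.27 ± 0.47) and Nfkbib (7.20 ± 0.46), which overlapped each other, and Nfkbiz (5.20 ± 0.45) and Relb (5.17 ± 0.74), which did too. Rel (2.99 ± 0.15), Tnfaip3 (2.46 ± 0.22) and Nfkbie (2.11 ± 0.30) were lowest, the last pair overlapping. In cut tendon Nfkbia (24.3 ± 2.56), Nfkb1 (23.1 ± 4.09) and Rela (19.7 ± 4.26) overlapped one another in turn. Nfkb2 followed alone at 10.6 ± 0.63, and then Nfkbiz (7.05 ± 2.40) and Relb (6.36 ± 0.57). Nfkbib (4.72 ± 0.45) and Nfkbie (4.15 ± 0.95) now overlapped, with Rel (3.04 ± 0.64) and Tnfaip3 (2.76 ± 0.50) at the lower end.

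Ratios of FPKM within a library do not depend on the scaling between libraries. The ratios below were chosen with the values in view and are given as a description, with no test. The summed FPKM of Nfkbia, Nfkbib and Nfkbie, divided by that of the 5 subunit genes, was 0.724, 0.933 and 0.819 in the sham libraries, and the cut libraries had 0.513, 0.479 and 0.607. This ratio was thus lower in each cut library than in any sham library. The inhibitor sums themselves overlapped, at 35.8 to 45.3 FPKM in sham and 30.8 to 36.6 in cut tendon. The subunit sums were 43.8 to 51.1 and 52.8 to 71.4 FPKM. Nfkbia, which was not called, made up 72.4% to 80.4% of the inhibitor sum in sham and 71.4% to 74.2% in cut tendon. The subunit sum included Nfkb1 and Nfkb2, which were called higher and whose uncut products also inhibit. Nfkbia over Rela was 1.73, 2.14 and 1.86 in sham and 1.20, 1.003 and 1.61 in cut tendon, again without overlap and with cut 3 nearest to sham. Among the inhibitors the mix shifted: Nfkbie over Nfkbib was 0.349, 0.252 and 0.285 in sham and 1.04, 1.05 and 0.592 in cut tendon. Nfkbie made up 3.94% to 6.40% of the inhibitor sum in sham and 9.59% to 14.6% in cut tendon. The mix of subunits changed less, with Nfkb1 at 33.7% to 35.9% of the subunit sum in sham and 35.7% to 37.8% in cut tendon, and Rela at 31.5% to 35.0% and 28.1% to 34.1%. Nfkb2 over Relb was 1.30, 1.52 and 1.42 in sham and 1.61, 1.76 and 1.65 in cut tendon, a narrow separation.

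**Figure D3:**
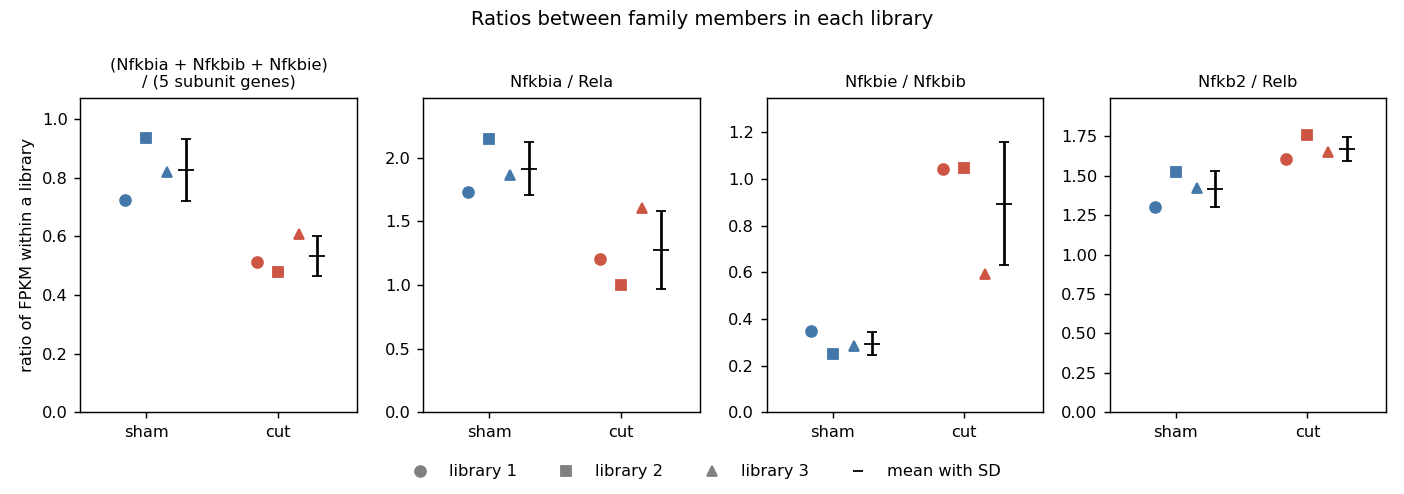
Ratios of FPKM within each library for sham (blue) and cut tendon (red), with the mean and SD beside the points (n = 3). The inhibitor-to-subunit ratio and Nfkbia over Rela are lower in all 3 cut libraries, and Nfkbie over Nfkbib and Nfkb2 over Relb are higher, with cut 3 nearest to sham in the first 3.

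The rest of the pathway was described through 5 further gene lists. In the reported fit, their counts are to be read against the 20.4% of all tested genes called higher and the 12.3% called lower. Calls over all tested genes fell in several other fits. The 2968 higher became 1566 without sham 1, 1091 without sham 2, 1359 without sham 3, 1585 without cut 1 and 1863 without cut 2. The 1789 lower became 670, 436, 798, 688 and 893 in the same order. With the muscle covariate, 11.0% were higher and 5.24% lower. Of the family members outside the 10, Bcl3, a nuclear IκB that works with p50 and p52, rose by log2 1.22 ± 0.30, from 6.45 ± 0.128 to 15.1 ± 5.73 CPM (SD), a call that was lost with the muscle covariate or without any library other than cut 3. Nfkbid, another nuclear IκB (0.75 ± 0.26), and Nfkbil1 (0.003 ± 0.247) were not called. Among 25 kinases and adaptors that lead to IκB breakdown, 6 passed the test as higher and 1 as lower, and 18 did not pass, with a median log2 fold change of -0.03 against -0.02 for all genes. The number higher was 2 without sham 2, and 3 without sham 3, without cut 1 or with the muscle covariate. The number lower was 5 without cut 3 (beside 29.7% of all tested genes), 2 in DESeq2 and on log2(FPKM + 1), and 0 with the covariate. The 3 core IKK genes were among those not called, with Chuk at -0.12 ± 0.16, Ikbkb at -0.07 ± 0.13 and Ikbkg at -0.36 ± 0.13. The adaptor of Toll-like and interleukin-1 receptors, Myd88, rose by log2 1.10 ± 0.18 (14.4 ± 1.64 to 30.9 ± 5.89 CPM). The IKK-related kinase Ikbke rose by 1.47 ± 0.25 and the TNF receptor kinase Ripk1 by 0.99 ± 0.18, the latter not called without sham 2. Tab3, a ubiquitin-binding partner of the kinase TAK1, fell by 0.64 ± 0.12 on the log2 scale and was not called with the muscle covariate.

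Negative regulators outside the family were called in both directions. Of 16 tested, 2 passed as higher, 2 as lower and 12 did not pass, with a median of -0.09. Without cut 3, 2 were higher and 5 lower, beside 28.5% and 29.7% of all tested genes. All 4 calls were lost with the muscle covariate, and likewise when any single library other than cut 3 was left out. The deubiquitinase gene Cyld, at 84.5 ± 4.38 CPM in sham and 55.9 ± 8.46 CPM in cut tendon, fell by 0.60 ± 0.14 (log2). The cytokine signalling inhibitor Socs1 rose by log2 1.53 ± 0.38 and the ubiquitin ligase gene Itch by 0.46 ± 0.12. The call of Socs1 was also lost in limma-voom, and that of Itch with no filter and with both FPKM settings.

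Ligands and receptors that switch the pathway on were higher or not called. Of 17 tested, 8 were higher and none was lower in edgeR's test; DESeq2 and limma-voom called none lower either, and none with a negative value had an unadjusted p under 0.05. The 8 became 3 without sham 1, without sham 2 or with the muscle covariate, and 4 without sham 3 or cut 1. Calls over all tested genes fell in these fits too, as given above. With upper quartile scaling and in DESeq2, 9 were higher. The median was 0.70. Il1b, the inflammatory cytokine interleukin-1β, rose by log2 3.56 ± 0.40 at low abundance, from 0.404 ± 0.154 to 4.81 ± 1.53 CPM. The TNF receptor gene Tnfrsf1b rose by 0.90 ± 0.13 and the bacterial lipoprotein receptor gene Tlr2 by 1.47 ± 0.24. The lymphotoxin receptor gene Ltbr, upstream of Nfkb2, rose by 0.77 ± 0.18, while Tnf itself was near 1 CPM in both groups and not called (0.46 ± 0.35). The calls of Il1b, Tnfrsf1b and Tlr2 held under all 17 alternatives.

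Target genes of the pathway had log2 fold changes from -1.36 to 3.67. Of 26 tested, 12 passed as higher, 2 as lower and 12 did not pass, and with the replicate block 4 were lower. The number higher was 5 without sham 2, 6 without cut 1 or with the muscle covariate, and 7 without sham 3. It rose to 16 in DESeq2 and on log2(FPKM + 1), 13 on log2(FPKM + 0.1) and 14 without cut 3. The last is beside 28.5% of all tested genes. The number lower was 5 in DESeq2 and without cut 3, 1 without sham 1, and 0 with upper quartile scaling, in both FPKM settings and without sham 2, sham 3, cut 1 or cut 2. The median was 1.30. Bcl2a1b, a survival gene with near-identical copies between which reads can be split, rose by log2 3.67 ± 0.36, from 0.234 ± 0.0776 to 3.03 ± 0.74 CPM. The stress gene Gadd45b rose by 1.77 ± 0.19 and the leukocyte adhesion gene Vcam1 by 1.97 ± 0.23, from 12.7 ± 0.912 to 49.8 ± 13.7 CPM. These 3 calls held under all 17 alternatives. Against these, the survival gene Bcl2l1 fell by 0.53 ± 0.14 on the log2 scale, and Nfkbia and Tnfaip3, targets by the same textbook standard, did not pass the test. The call of Bcl2l1 was lost with upper quartile scaling, with both FPKM settings, and without sham 2, sham 3, cut 1 or cut 2. The macrophage list was higher beside these groups, as given above, and its part in them was not tested. Adjusted p-values of the genes called and named by rule in these lists lay between 0.0035 and 0.0339 (edgeR, Benjamini-Hochberg).

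**Figure D4:**
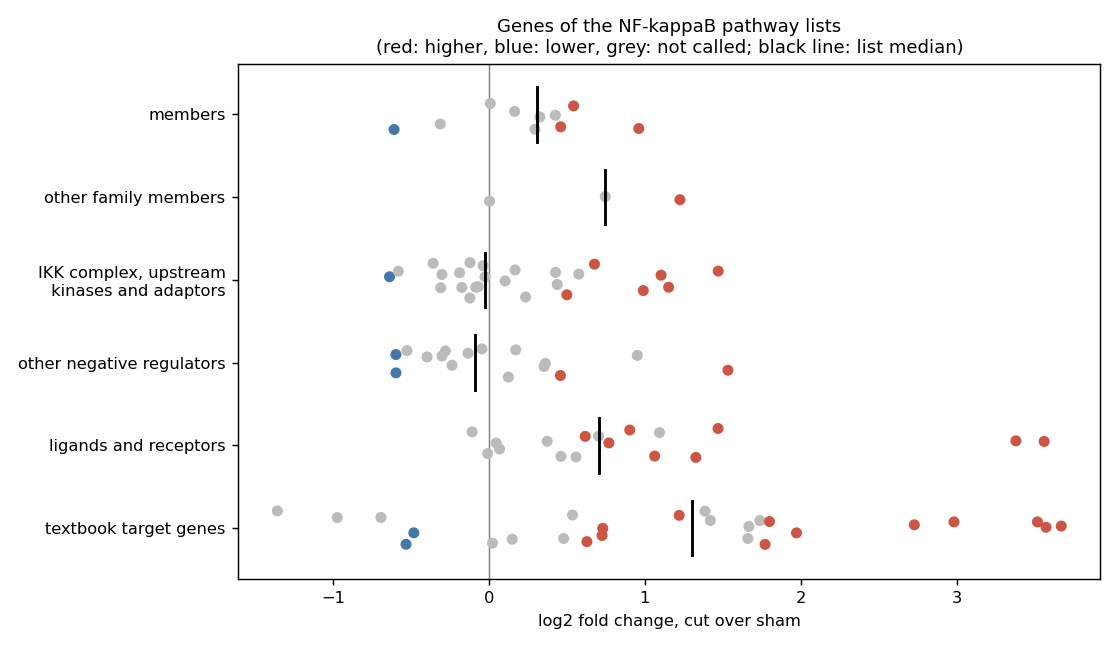
Log2 fold change of cut over sham for each tested gene of the 10 members and of 5 further pathway lists, with red for higher, blue for lower and grey for not called, and a black line at each list's median. The kinases and the negative regulators center near 0, while the target genes reach from about -1.36 (Sod2, not called) to 3.67 (Bcl2a1b).

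The genes whose log2 CPM was most alike over the 6 libraries were sought among 11282 genes with a mean of at least 5 CPM. Nfkb1 was most like Lpp (Pearson r = 0.999), Tmem260 (0.998) and Hltf (0.998), and Nfkb2 most like Zfp937 (0.999), Tmem229b (0.997) and Rgs2 (0.996). With 6 libraries in 2 groups such values are common, and 1210 genes exceeded an r of 0.95 with Nfkb1 and 617 with Nfkb2. Nfkbia and Tnfaip3 were not called between the groups, and fewer genes exceeded 0.95 with them. There were 5 with Nfkbia, led by Hddc3 (0.963), Podn (0.958) and 8430408G22Rik (0.955). The 3 with Tnfaip3 were Eln (0.988), Cygb (0.978) and Ehd4 (0.961). Such counts depend on how far a gene separates the groups, so they are not read as a trait of these genes. These correlations are a description over libraries that share group and depth.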

How the data were processed

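Total RNA libraries were made with a stranded, ribosomal RNA-depleting kit, and the submitters' processing notes name Trimmomatic, HISAT2 and the build GRCm38.p6, without versions. How reads were counted, and with which strand setting, is not given in the sources used here. The authors deposited whole read counts per gene, not normalized, and a table of FPKM, which equals those counts divided by gene length and library total (every gene with counts in all libraries implied a whole-number length, to within 0.01 bases).

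Counts were analysed with edgeR 4.0.16 in R 4.3.3: filterByExpr left 14561 genes, scaling was by TMM, and cut was compared with sham by the quasi-likelihood test with Benjamini-Hochberg adjustment and a threshold of 0.05. The SE of a log2 fold change is its size over the root of the F statistic. The common biological coefficient of variation was 0.296. On simulated data of 14457 genes, 84% of 100 genes changed 4-fold and 8% of 100 changed 2-fold were recovered, with 7 false calls. No others were changed there, while the reported fit called 2968 genes higher and 1789 lower. Recovery with that many changed genes was not tested, so these shares do not give the recovery of the reported fit. No pair of libraries in a group was alike enough to be a duplicate (chi-square per gene of at least 15.0). A single count was 0.0319 to 0.0418 CPM.

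Sham and cut share replicate numbers. Deviations from the group means correlated at 0.26, 0.13 and 0.41 between libraries of the same number. Sham 1 and cut 2 correlated at 0.24 as well, and sham 2 and cut 1 at 0.11. The labels name no pairing, so whether the numbers pair the libraries is not known. The group-only fit is the one reported and the block an alternative. Alternatives were 2 other scalings, 2 other filters, DESeq2 1.42.0, limma-voom (limma 3.58.1), limma on log2(FPKM + 1) and log2(FPKM + 0.1), the replicate block, the log2 CPM summed over 30 muscle genes as a covariate, muscle genes out of the library sizes, and each library left out. All 10 members are named. Of each other list, the 3 genes with the smallest p and the strongest in the opposite direction were named. Chuk, Ikbkb, Ikbkg, Ltbr, Tnf and Sod2 were named after their values were seen. The members and lists were chosen with earlier results of these data known, so no list was tested as a whole. The other marker lists gave these calls: cartilage 7 of 8 higher, T and NK cell 3 of 8 and B and plasma cell 3 of 4 tested higher, neutrophil 1 of 4 and keratinocyte 1 of 5 tested higher, endothelial 4 of 8, adipocyte 8 of 8, Schwann cell 3 of 6 and erythroid 1 of 6 tested lower, and skeletal muscle 0 of 30.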

Additional observations from a re-analysis of the deposited data

How the results depend on the processing

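Leaving out a library changed most calls: members called higher ran from 0 to 5 and members called lower from 0 to 1, and over all genes 1091 to 4212 were higher and 436 to 4392 lower. With the muscle covariate, 1 member was higher and 0 were lower, and over all genes 1595 were higher and 763 lower. DESeq2 called 2738 of all genes lower. The other settings left each of these counts of members and of all genes within 1.5 times its reported value. Differences near 0 turned sign. Rel was at -0.015 with no filter, -0.0019 in limma-voom, -0.00089 with the replicate block, -0.017 with muscle genes out of the library sizes, and between -0.070 and 0.134 with single libraries left out (negative without sham 1, sham 2, cut 1 or cut 3). Nfkbil1 was at -0.021 with no filter, -0.061 with the muscle covariate, -0.024 with muscle genes out of the library sizes, and between -0.247 and 0.113 with single libraries left out (negative without sham 3 or cut 2). Rela and Nfkbiz turned to -0.036 and -0.238 with the muscle covariate. The cause of these turns was not tested. The fit with the replicate number as a block kept 3 members higher and 1 lower, and it called 3161 of all genes higher and 2522 lower. Of the members, the genes named by rule and the genes most alike, this fit changed 1 call, that of 8430408G22Rik. Chuk, Ikbkb, Ikbkg, Ltbr, Tnf and Sod2 were not among the genes compared in this way. Leaving out a library reduces the samples to 5, and the low counts of Il1b, Bcl2a1b and Tnf make their fold changes less precise than those of the 10 members.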
